A study of Rattus norvegicus with 16 samples.

Results

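The smooth muscle contractile genes are 10 genes of the contractile apparatus and its cytoskeleton. They were chosen by name, as the probes whose gene name on the array is Acta2, Actg2, Myh11, Cnn1, Tagln, Des, Lmod1, Smtn, Mylk or Synm. They are 10 of the 14527 named genes with a probe that passed the filter on dim signals. The array carried 16 probes whose gene name was one of the 10, and all 16 passed that filter, with a signal well above background in both dyes on all 16 arrays. None was saturated in Cy5.

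Smooth muscle shortens when myosin heads pull on actin filaments, and the muscle coats of the stomach and intestine use this to mix and move their contents. Contraction begins when a rise in calcium activates a kinase that phosphorylates the light chain of myosin, and it ends when a phosphatase removes that phosphate. The genes of this apparatus are read from a shared program in which serum response factor binds CArG boxes together with its partner myocardin.

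The rats were suckling Wistar rats (the Wistar Han strain in the study's methods) that received saline solution (group C) or obestatin (group OH), a peptide cut from the same precursor as ghrelin, at a dose of 250 nmol/kg by the enteral route, 2 times a day from day 14 of life until they were killed on day 21. Stomach and the middle part of the intestine were each measured on 4 arrays of C and 4 of OH, and the labels do not say whether a stomach array and an intestine array share a rat. Every array carried Cy5-labelled RNA of 1 rat against a Cy3-labelled pool of RNA from all rats, and the dyes were not swapped. The pups of a treatment came from 4 litters, and the labels do not say which rat came from which litter. The tissue was used whole, so fewer muscle cells in a sample and less of an RNA per cell cannot be told apart in any value below.

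The values come from probes of 60 bases. For a gene with more than 1 probe, the one with the highest mean Cy5 signal stands for the gene, and the others are given further on. The sequences below show where in the transcripts some of the values that carry the results were read. Actg2 was read at chr4:117732497-117732556, Mylk at chr11:67602541-67602600, Des at chr9:74645149-74645208, Smtn at chr14:84160581-84160640, Lmod1 at chr13:48360886-48360945 and Synm at chr1:122474228-122474287, in the rn4 coordinates of the array design. The design gives no place for the probe of Acta2. The Cnn1 probe (chr8:21219991-21220050) starts at base 510 of its transcript, and the Tagln probe at base 463, where its 60 bases are spread over chr8:48902736-48903116, a stretch of 381 bases, so that it spans an intron and reads spliced RNA. The Myh11 probe (chr10:775993-776052) ends with a stop codon, in capitals. The fourth sequence is the second probe of Mylk (chr11:67604486-67604545), shown because it departed from the first between the slides. The first 3 belong to genes whose unadjusted p between OH and C in stomach was among the 5 under 0.05.
Cnn1: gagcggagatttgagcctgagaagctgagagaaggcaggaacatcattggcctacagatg
Tagln: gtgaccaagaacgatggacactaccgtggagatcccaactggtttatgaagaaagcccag
Myh11: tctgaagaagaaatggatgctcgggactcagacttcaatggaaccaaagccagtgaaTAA
Mylk, second probe: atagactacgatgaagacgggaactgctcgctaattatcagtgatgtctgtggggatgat

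Since the genes moved together, their promoters were searched for the CArG box on both strands, in the 250 bases before and the 50 bases after the start site (RefSeq, GRCr8). Promoters of Acta2, Actg2, Cnn1, Des, Smtn, Mylk and Synm were in the table, those of Myh11, Tagln and Lmod1 were not used here. None of these 7 windows held a box that kept the full consensus, which 1.64% of all 33469 promoters held. With 1 C or G allowed among the 6 A or T letters of its core, 1 of the 7 held it, Acta2, against 9.42% of all promoters. Acta2 held it at 2 places, 134 and 84 bases before the start site, in capitals in the sequence of chr1:241172454-241172753, which lies on the minus strand.
Acta2: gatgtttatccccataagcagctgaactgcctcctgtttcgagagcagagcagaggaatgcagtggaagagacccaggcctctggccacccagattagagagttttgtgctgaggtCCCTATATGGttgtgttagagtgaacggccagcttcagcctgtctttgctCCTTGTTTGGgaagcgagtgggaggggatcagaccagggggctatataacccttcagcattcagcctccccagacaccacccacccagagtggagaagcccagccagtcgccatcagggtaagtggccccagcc

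The arrays carried the tissue they were labelled with. For 8 stomach mucosa markers (oxyntic glands and surface), the mean log2 ratio lay between 2.20 and 3.67 on the stomach arrays and between -4.50 and -3.83 on the intestine arrays. Among the C stomach arrays, replicate 2 stood apart in 19 kept genes of striated muscle, with a mean of -0.89 against 2.83 to 3.47 on the other 3. It was also lower than they were in forestomach genes (-0.03 against 1.11 to 1.84) and fibroblast genes (-1.80 against -1.01 to -0.66). The same held for genes of adhesion and force transmission (-1.19 against -0.46 to -0.32). Values without that array are given with the results that rest on the group. The median raw Cy3 signal was 188 to 195 scanner units on the C slides and 341 to 399 on the OH slides. Each group lay on 1 slide of its own, and the OH slides were scanned on another day than the C slides. A difference between groups and a difference between slides or scan days therefore cannot be told apart in these data.

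The log2 ratio of Cy5 to Cy3 is used below for the level of a gene relative to the pool. Actg2 encodes the gamma actin of enteric smooth muscle. Its log2 ratio was -2.86, -3.19, -2.09 and -3.26 on the C stomach arrays 1 to 4 and 0.58, -1.88, -3.10 and -0.23 on the OH stomach arrays. In middle intestine it was -0.42, -1.19, -1.93 and -1.30 in C and -1.09, -1.45, -0.69 and -1.08 in OH. All 4 C stomach arrays lay below all 4 C intestine arrays, whereas the OH stomach arrays reached from among the lowest values of the gene to its highest. Acta2 is the alpha actin of vascular and visceral smooth muscle. Its log2 ratios spanned -3.17 to -2.05 in C stomach, where OH stomach spanned -3.23 to 0.20, and the intestine arrays spanned -1.73 to -0.58 (C) and -1.74 to -0.63 (OH).

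Mylk encodes the kinase that phosphorylates the myosin light chain. Its log2 ratio was -2.74, -3.50, -1.96 and -2.40 in C stomach and 1.02, -2.04, -3.21 and -0.14 in OH stomach. In middle intestine it was 0.00, 0.30, -0.64 and 0.42 in C and -0.14, -0.24, 0.36 and 0.31 in OH. The C stomach arrays were separated from the C intestine arrays by more than 1 log2 unit, and OH stomach overlapped with every other group. For Myh11, the heavy chain of smooth muscle myosin, the stomach arrays spanned -3.07 to -1.46 (C) and -2.81 to 1.23 (OH). Its intestine arrays spanned -1.93 to -0.18 (C) and -1.12 to -0.21 (OH).

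The next genes encode proteins that sit on or along the actin filament. Cnn1 (calponin) binds actin and slows the myosin ATPase, and its log2 ratio was -2.76, -2.97, -1.93 and -2.84 in C stomach and 0.95, -1.45, -2.87 and 0.25 in OH stomach. In middle intestine it was -0.71, -1.50, -2.24 and -1.30 in C and -1.10, -1.51, -0.81 and -0.87 in OH. On C intestine array 3 it lay within the values of C stomach, so those groups overlapped. Smtn (smoothelin), a marker of contractile smooth muscle, had log2 ratios of -1.13, -1.47, -0.75 and -0.92 in C stomach and 1.17, -0.83, -1.41 and 0.20 in OH stomach. It was 0.37, 0.46, -0.17 and 0.52 in C middle intestine and 0.27, -0.00, 0.72 and 0.59 in OH middle intestine. C stomach lay wholly below both intestine groups, while the OH stomach arrays divided into 2 above 0 and 2 well below it. Tagln (transgelin), an actin-binding protein, spanned -2.43 to -1.29 on the C stomach arrays and -2.35 to 1.17 on those of OH. Lmod1 (leiomodin), which nucleates actin filaments, spanned -2.54 to -0.60 and -2.72 to 1.32. Their intestine arrays lay between -1.38 and -0.23 for Tagln and between -0.30 and 0.68 for Lmod1. Lmod1 was the dimmest member, with log2 Cy5 signals from 3.79 to 8.27, so its ratios rest on little signal.

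Des and Synm encode desmin and synemin, intermediate filament proteins that link the contractile apparatus of smooth and striated muscle to the cell edge. The log2 ratio of Synm was -1.46, -2.07, -0.61 and -1.29 in C stomach and 1.70, -0.87, -2.23 and 0.59 in OH stomach. In middle intestine it was 0.59, 0.76, -0.56 and 1.00 in C and -0.04, -0.10, 0.95 and 0.72 in OH. C stomach lay below C middle intestine on every array, by a narrow margin between C stomach array 3 and C intestine array 3. The stomach arrays of Des spanned -1.72 to -0.84 (C) and -2.24 to 1.05 (OH), and its intestine arrays -0.79 to 0.49 (C) and -0.94 to 0.17 (OH).

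**Figure D1:**
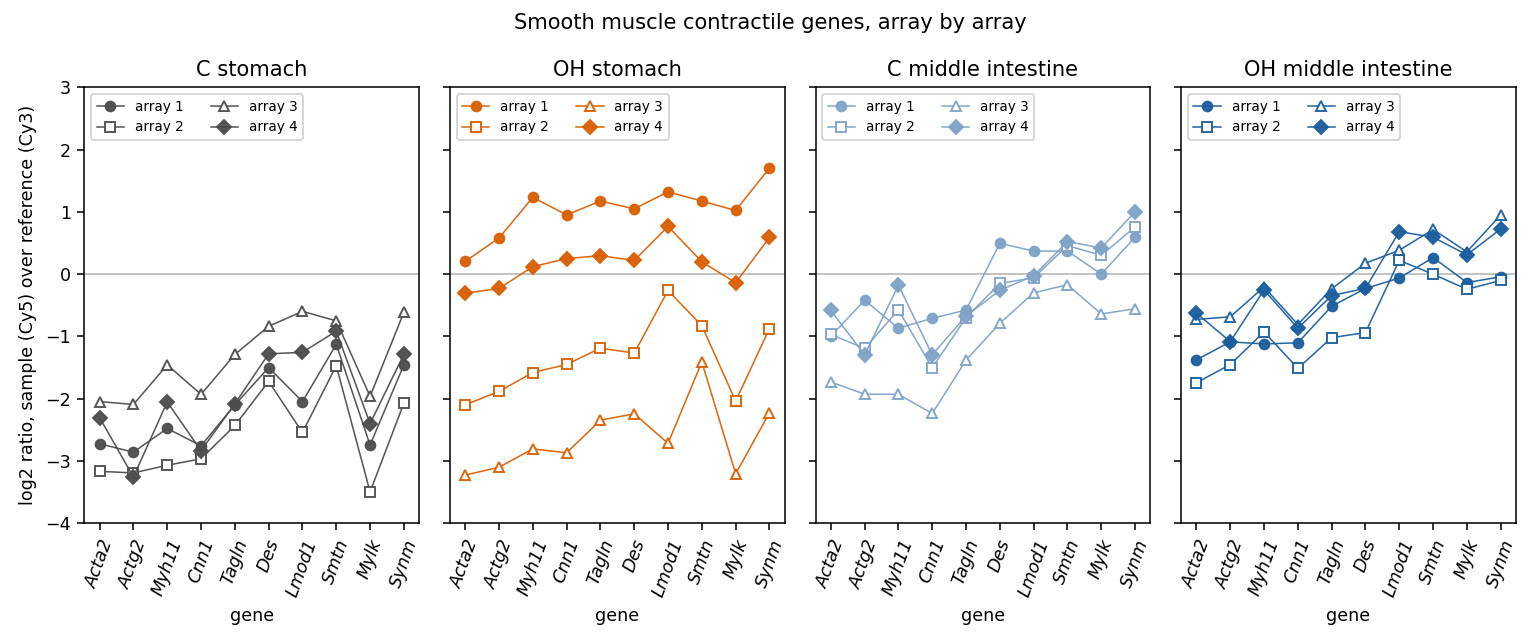
Log2 ratio of the sample (Cy5) to the reference pool (Cy3) for the 10 contractile genes (x axis), with 1 panel for each group and 1 marker shape for each array; the lines only join values of the same array. The OH stomach arrays lie apart as nearly parallel lines, array 1 at the top (mean of the 10 genes 1.04) and array 3 at the bottom (-2.62), and the C stomach arrays are low for every gene.

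The genes moved as a block from array to array. In OH stomach, all 10 genes had the same order of arrays, with array 1 the highest, then array 4, array 2 and array 3. OH stomach array 1 was the highest of all 16 arrays for all 10 genes, and C middle intestine array 3 was the lowest of its group for all 10. On the intestine arrays the mean of 9 kept enterocyte genes ran the other way. It was highest in C on array 3 (0.028), where the members were lowest, and in OH it was highest on array 2 (0.87), where the mean of the members was lowest, and lowest on array 3 (-1.44), where that mean was highest. The part of this in the ratios of the members was not tested. The mean log2 ratio of the 10 genes was -2.18, -2.61, -1.36 and -1.97 in C stomach, 1.04, -1.35, -2.62 and 0.18 in OH stomach, -0.17, -0.36, -1.17 and -0.24 in C middle intestine and -0.54, -0.77, -0.01 and -0.11 in OH middle intestine. Over the 45 pairs of genes, Pearson's r across the 16 arrays ranged from 0.83 (Cnn1 and Mylk) to 0.99 (Smtn and Mylk), with a median of 0.93. After the group means were taken away it still ranged from 0.87 to 0.99, with a median of 0.95. Within the 8 stomach arrays the lowest r of a pair was 0.90, and within the 8 intestine arrays it was 0.53. These values are a description, since all genes of an array share the same sample, labelling and reference.

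The spread between rats differed in size between the groups. In OH stomach the SD of the 10 genes ran from 1.14 (Smtn) to 1.89 (Mylk), with a median of 1.68 log2 units, where the median over all 21174 probes was 0.25, and that median SD of the genes stood at percentile 99.6 of all probes. In C stomach and C middle intestine their median SD was 0.51 and 0.50, at percentiles 88.8 and 86. In OH middle intestine it was 0.34, at percentile 64.5. No test of these spreads was made.

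Between the tissues of the C rats, all 10 genes had a lower mean ratio in stomach, and 4 of them passed the adjusted threshold of 0.05 in limma. Mylk fell by 2.67 on the log2 scale (SE 0.67, a 6.37-fold difference, adjusted p = 0.0051), Smtn fell by 1.36 (SE 0.41, adjusted p = 0.015), Synm fell by 1.81 (SE 0.65, adjusted p = 0.036) and Actg2 fell by 1.64 (SE 0.61, adjusted p = 0.039). The remaining 6 had differences from -1.61 (Lmod1, adjusted p = 0.059 in limma) to -1.14 (Tagln, adjusted p = 0.11), with adjusted p up to 0.13 (Cnn1). Of the 16 member probes, 6 passed in this direction, against 22.3% of all probes tested. The arrays of the groups did not overlap for 7 of the 10 genes and 9 of the 16 probes, against 22.1% of all probes, and these 7 reached the smallest p that 4 arrays against 4 allow in an exact permutation test (two-sided, 0.0286). The median difference of the 10 genes was -1.43, beside -0.01 over all probes.

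Other cell types differed between the same C arrays. Of 6 genes of pericytes and vessels, 5 were lower in C stomach, with a median of -0.92, and Pdgfrb, Pecam1 and Rgs5 fell (limma, adjusted), against 22.3% of all probes. Of 19 striated muscle genes, all 19 were higher, with a median of 3.19, and 15 rose, against 22.7% of all probes. With C stomach replicate 2 left out, the medians were -0.80 and 4.62, with 2 lower and 16 higher past the threshold. Of 6 fibroblast genes 4 were lower and 2 higher in C stomach (median -0.38). Of 3 genes of interstitial cells of Cajal 2 were lower and 1 higher (median -0.42). In each of these lists 1 gene passed, as higher, and 0 as lower. Without C stomach replicate 2 their medians were -0.02 and -0.54. The part of these cells in the ratios of the contractile genes was not tested.

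How many of the genes passed depended on which arrays set the spread. In the fit of all 16 arrays, the wide OH stomach group entered the spread of each gene. In a fit of the 8 C arrays alone, all 10 genes passed, with adjusted p in limma from 0.00041 (Mylk) to 0.029 (Myh11) and the same differences. Passing was common over all probes. In either direction, 9517 of 21174 passed in the fit of all 16 arrays, and 7971 to 11849 in the other settings, this fit among them. Without C stomach replicate 2, Mylk fell by 2.39 (adjusted p = 0.017 in limma) and Smtn by 1.23 (adjusted p = 0.043), whereas Actg2 (-1.53, adjusted p = 0.084) and Synm (-1.57, adjusted p = 0.092) no longer passed. The groups still did not overlap for 7 of the 10 genes, beside 26.7% of all probes that did not overlap with C stomach lower, and 3 of the 16 member probes passed, beside 21.1% of all probes. Actg2 and Synm also missed the threshold without C stomach replicate 1 or 4, or without C middle intestine replicate 1, 2 or 4.

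**Figure D2:**
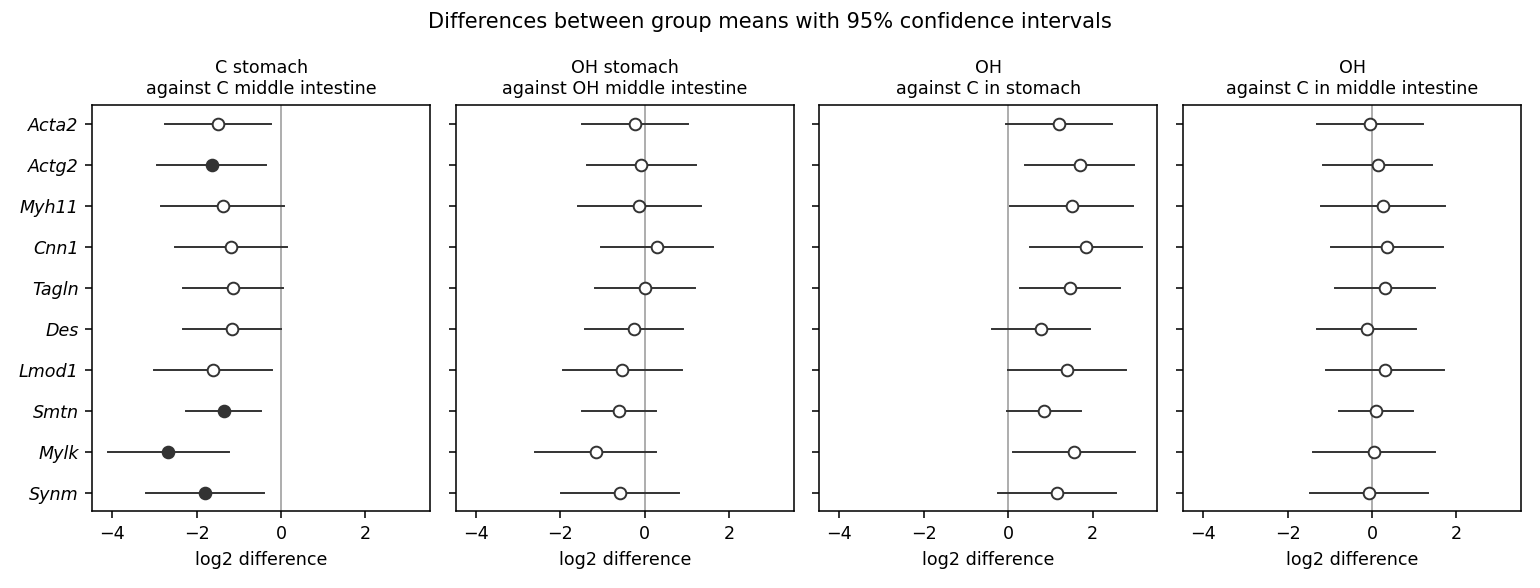
Difference of the group means for each gene, on the log2 scale, with the 95% confidence interval from limma, which pools the spread of all groups. Filled points passed an adjusted p of 0.05. All points of C stomach against C middle intestine lie below 0, all points of OH against C in stomach lie above 0 with wide intervals, and those of OH against C in middle intestine lie near 0.

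Between the tissues of the OH rats, none of the 10 genes passed. Their differences ran from -1.16 (Mylk, 95% interval -2.60 to 0.28) to 0.29 (Cnn1), 8 lower and 2 higher in stomach, with adjusted p in limma from 0.19 to 0.99. Among the 16 member probes 0 passed lower in stomach, against 19.1% of all probes. Passing was common over all probes in this comparison as well. In either direction 8090 passed in the fit of all 16 arrays, and 6902 to 7934 with 1 array left out. Without OH stomach replicate 1, the highest array, Mylk fell by 1.87 (adjusted p = 0.017 in limma) and Smtn by 1.07 (adjusted p = 0.018). For the remaining 8 genes in the fit of all arrays, the 95% interval reached to -1.03 or below and to 0.81 or above.

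Obestatin and saline were compared within each tissue, to ask whether the treatment was followed by a change in these genes. In stomach, all 10 genes had a higher mean ratio in OH, by 0.77 (Des) to 1.84 (Cnn1) log2 units, with a median of 1.42, beside 0.01 over all probes, and none passed the adjusted threshold in limma (adjusted p from 0.34 to 0.64). The difference was 1.84 for Cnn1 (SE 0.62, a 3.58-fold difference, 95% interval 0.51 to 3.17), 1.69 for Actg2 (0.40 to 2.99), 1.56 for Mylk (0.12 to 3.00), 1.51 for Myh11 (0.05 to 2.96), 1.46 for Tagln (0.27 to 2.65) and 1.39 for Lmod1 (-0.01 to 2.79). It was 1.20 for Acta2 (-0.05 to 2.46), 1.16 for Synm (-0.24 to 2.55), 0.85 for Smtn (-0.04 to 1.73) and 0.77 for Des (-0.39 to 1.94). OH stomach arrays 1 and 4 lay above every C stomach array for all 10 genes, and array 3 lay below the C stomach mean for all 10. The groups therefore overlapped for every gene, and the smallest p of the 10 in an exact permutation test (two-sided) was 0.114.

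Over all probes, 0 of 21174, or 0%, passed in limma after adjustment in this comparison, while 2247 passed an unadjusted p of 0.05. By one-way ANOVA and Tukey's HSD 709 passed. There the ANOVA of all 4 groups was adjusted over probes, and the Tukey p of this pair was not. The 709 is therefore not a count at the adjusted threshold used in limma. Without adjustment, 5 of the 10 genes and 8 of the 16 member probes passed as higher in OH, against 5.39% of all probes. These p-values rest on the same pooled spread. None of the 10 passed by ANOVA and Tukey's HSD. Without C stomach replicate 2 the differences ran from 0.64 (Des) to 1.73 (Cnn1), and the lowest adjusted p in limma was 0.27. Without OH stomach replicate 1 they ran from 0.24 (Des) to 1.26 (Cnn1), and without OH stomach replicate 3 from 1.25 (Smtn) to 2.54 (Cnn1) with adjusted p from 0.067 to 0.17. C stomach is the group that both this comparison and that between the C tissues rest on.

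In middle intestine, the 10 genes differed between OH and C by -0.13 (Des) to 0.36 (Cnn1) log2 units, 7 higher and 3 lower in OH, and none passed (limma, adjusted p from 0.928 to 0.997). The intervals ran from -1.46 (Synm) at the lowest to 1.72 (Myh11) at the highest, and for Smtn, which had the narrowest, from -0.79 to 0.98. They rest on the pooled spread, which the OH stomach arrays widened. For Smtn the SD was 0.32 in C middle intestine, 0.32 in OH middle intestine and 1.14 in OH stomach. Over all probes 0.368% passed the adjusted threshold there, and 0 of the 16 member probes did. Without adjustment 1 member probe, the second of Mylk, passed as higher in OH, against 6.55% of all probes.

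The difference between the tissues in OH against C was tested as an interaction. By the probe that stands for each gene it was positive for all 10 genes, from 0.75 (Smtn) to 1.56 (Actg2) log2 units. No gene passed in limma (adjusted p from 0.85 to 0.90). The second probes of Actg2, Myh11, Lmod1 and Smtn gave 0.93 (Smtn) to 1.48 (Actg2). That of Mylk gave 0.33 and that of Synm -0.055. Over all probes 0% passed, and without adjustment 1238 probes, or 5.85%, did, with 0 of the 16 member probes among them. Under none of the settings tried did a member pass in this comparison or in either comparison of OH with C. The differences were 0.61 (Smtn) to 1.45 (Actg2) without C stomach replicate 2, and again none passed. In the order of the group means, C stomach was the lowest for all 10 genes and OH stomach came next for 6 of them, Acta2, Des, Lmod1, Smtn, Mylk and Synm. For none of the 10 did OH stomach and OH middle intestine, or the 2 intestine groups, differ past the adjusted threshold in limma. For Actg2, Myh11, Lmod1, Smtn and Mylk, OH stomach and C middle intestine were neighbours in the order, and this pair, which differs in both tissue and treatment, was not compared.

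The channels were then taken apart, since a ratio can move through the sample or through the pool. In Cy5 alone, the 10 genes were higher in OH stomach than in C stomach by 1.17 (Des) to 1.81 (Cnn1) log2 units, beside a median of 0.32 over all probes, and none passed (limma, adjusted p from 0.081 to 0.19), against 6.93% of all probes. Leaving out C stomach replicate 2, these differences were 1.01 to 1.65, and none passed, against 5.59% of all probes. In middle intestine none of the 16 member probes passed in Cy5, against 0.51% of all probes. In Cy3, which held the same pool on every array, 62.3% of all probes differed between the OH and C slides of stomach and 30.6% between those of middle intestine, and so did 8 and 4 of the 16 member probes. The Cy3 difference of the 10 genes in stomach ran from -0.42 (Actg2) to 0.53 (Smtn), with a median of 0.15, beside a median of 1.49 in Cy5. For Smtn it was 0.53 beside 1.37 in Cy5, for Des 0.40 beside 1.17 and for Actg2 -0.42 beside 1.27, so that the ratios of Smtn and Des differed by less, and that of Actg2 by more, than their Cy5 signals. For Actg2 the Cy3 signal was 17.34 and 17.68 on OH stomach arrays 1 and 4 and 18.22 and 18.08 on arrays 2 and 3, lower where the Cy5 signal was higher (17.92 and 17.45, against 16.34 and 14.98), so part of the spread of its ratio lay in the reference channel.

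A second probe was present for 6 genes. For Actg2, Myh11 and Smtn both probes followed each other closely, with Pearson's r of 0.99 or more over the 16 arrays and no gap in the ratio above 0.39. The probes of Actg2 share 46 of their 60 bases, so they are not independent. For Lmod1, Mylk and Synm r was 0.88, 0.89 and 0.90, with gaps of up to 1.43, 1.34 and 1.45 log2 units on single arrays. For Synm the second probe gave a tissue difference in C of -0.55 (adjusted p = 0.34 in limma), where the first gave -1.81. It was dim, with log2 Cy5 signals from 4.38 to 7.38. Its tissue difference in C was -1.13 in Cy5 and -0.58 in Cy3 (adjusted p = 0.11 and 0.011 in limma). Between OH and C its Cy3 signal differed by -0.90 in middle intestine (adjusted p = 7.3e-05 in limma). In stomach its ratio differed by 0.28, where the first probe gave 1.16.

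The second probe of Mylk had log2 ratios of -1.17, -1.04, -1.81 and -0.74 in C middle intestine and -0.29, -0.19, 0.59 and 0.24 in OH middle intestine. These groups did not overlap, as was so, higher in OH, for 3.72% of all probes. The difference was 1.28 (SE 0.53, adjusted p = 0.40 in limma), where the first probe gave 0.05. It lay in the reference: the Cy3 signal of this probe was 12.74 to 13.09 on the C intestine slide and 11.34 to 11.69 on the OH intestine slide, a difference of -1.44 (adjusted p = 3.1e-08 in limma), while its Cy5 signal differed by -0.17 (adjusted p = 0.95). In stomach the Cy3 signal of this probe differed by -0.55 and that of the first by 0.19. The tissue difference in C was -1.17 by this probe (adjusted p = 0.084 in limma), made up of -1.95 in Cy5 (adjusted p = 0.015) and -0.78 in Cy3 (adjusted p = 0.00026). Without C stomach replicate 2 it was -0.99 in the ratio (adjusted p = 0.19 in limma) and -1.74 in Cy5 (adjusted p = 0.043).

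**Figure D3:**
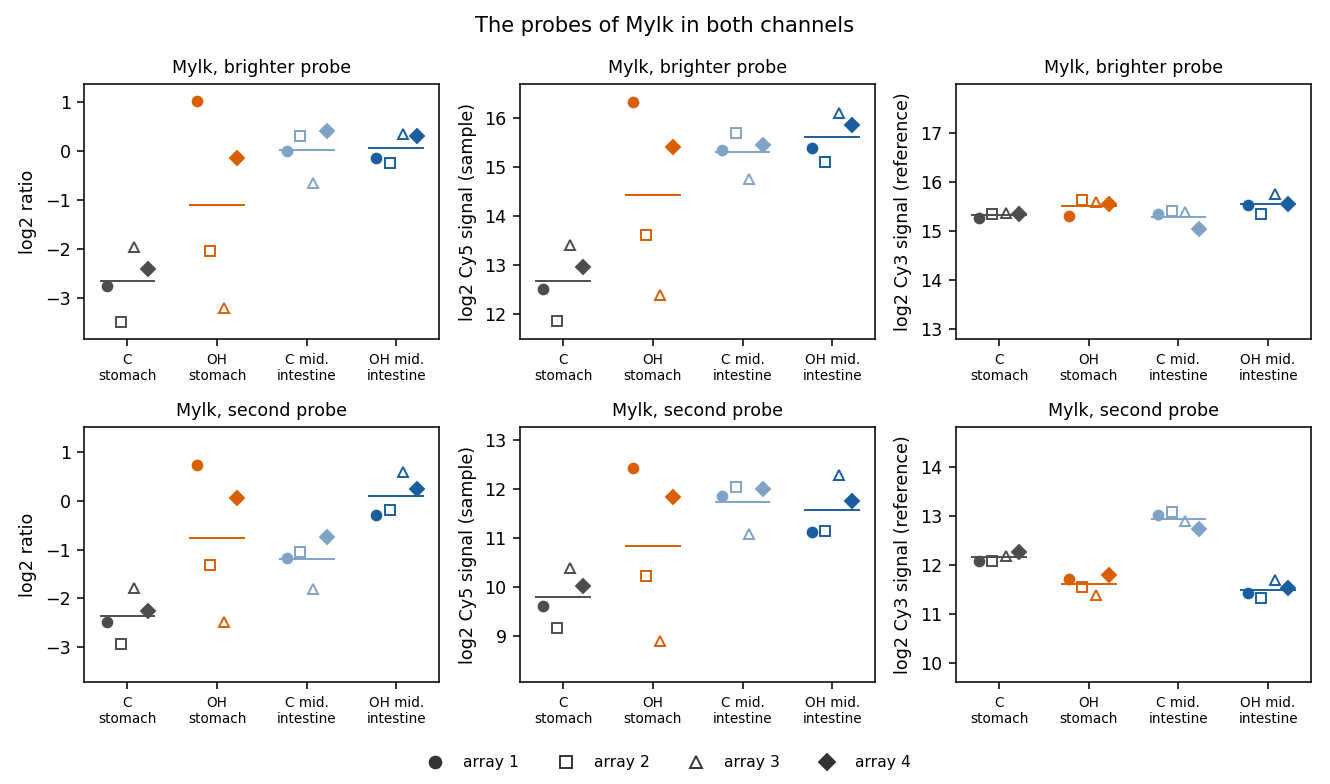
Log2 ratio, log2 Cy5 signal and log2 Cy3 signal (columns) of the first and the second probe of Mylk (rows) on every array; markers are arrays and bars are group means. The y axes span the same number of log2 units. The second probe is high in Cy3 on the C middle intestine slide (12.74 to 13.09), and the first probe stays between 15.03 and 15.74 in Cy3 on all slides.

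Of 12 direct partners of the contractile genes, 11 were higher in OH stomach than in C stomach and none passed (limma, smallest adjusted p 0.34), with differences from -0.89 (Ppp1r12b) to 1.56 (Cald1). Myl9, the light chain that Mylk phosphorylates, had log2 ratios of -2.26, -2.58, -1.45 and -2.08 in C stomach and 1.14, -1.46, -2.50 and 0.19 in OH stomach, the same order of arrays as the members. Myocd, the coactivator myocardin, was at -1.73, -1.84, -1.79 and -1.71 in C stomach and at 0.23, -1.27, -1.83 and -0.05 in OH stomach. Between the C tissues, 10 of the 12 were lower in stomach and 5 passed in either direction, against 22.3% of all probes that fell and 22.7% that rose. Myl9 fell by 1.61 (adjusted p = 0.033 in limma) and Myocd fell by 1.095 (adjusted p = 0.035). The phosphatase inhibitor Ppp1r14a fell by 1.30 (adjusted p = 0.013 in limma), and phospholamban (Pln) fell by 2.81 (adjusted p = 0.0063). The fifth, Ppp1r12b, a subunit of myosin phosphatase, rose by 1.63 (adjusted p = 0.00056 in limma). It spanned 0.94 to 1.47 in C stomach and 0.11 to 0.41 in OH stomach, while the members had higher means in OH stomach. Its difference of -0.89 between OH and C did not pass. Without C stomach replicate 2, Ppp1r12b rose by 1.63, Ppp1r14a fell by 1.19 and Pln fell by 2.40 between the C tissues (adjusted p = 0.0017, 0.037 and 0.022 in limma), while Myl9 (-1.45, adjusted p = 0.080) and Myocd (-1.07, adjusted p = 0.065) no longer passed.

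The wider lists of the pathway were described by counts, to be read against the 22.3% of all probes that fell and the 22.7% that rose in C stomach against C middle intestine. Of 12 kept thin filament and light chain partners, Myl9 and Actn4 fell and Tagln2, Smtnl2 and Lpp rose. Of 14 contraction signalling genes 6 fell, among them both subunits of the nitric oxide receptor (Gucy1a3 and Gucy1b3), the tachykinin receptor Tacr2, Ppp1r12a and Ppp1r14a, and Ppp1r12b rose. Gucy1b3 fell by 2.28 (adjusted p = 0.0042 in limma). Of 10 genes of calcium and membrane potential, the calcium channel Cacna1c and Pln fell, and Orai1 and Ryr2 rose. Of 18 genes of adhesion and force transmission, Pdlim3 fell and Csrp2, Fhl1, Fblim1, Dmd and Parva rose, with Csrp2 the most at 2.39 (adjusted p = 2.3e-08 in limma). Of 10 transcription factors and coactivators, Foxf1 and Myocd fell and Barx1, Klf4 and Mkl1 rose. Barx1, a factor of the stomach wall, rose by 2.55 (adjusted p = 0.00050 in limma). The median differences of the 5 lists were -0.58, -0.66, -0.17, -0.20 and -0.10, all nearer 0 than the -1.43 of the members. The medians without C stomach replicate 2 were -0.54, -0.51, -0.28, 0.11 and -0.19, with 1, 5, 1, 1 and 0 genes that fell and 2, 1, 2, 5 and 4 that rose. Between OH and C in stomach the medians were 0.67, 0.53, 0.27, 0.59 and 0.11 and no gene of these lists passed in limma. These medians were 0.63, 0.56, 0.24, 0.45 and 0.23 without C stomach replicate 2, and 1 gene passed, Smtnl2 at -1.10 (adjusted p = 0.006). In middle intestine 1 gene of them passed, Fblim1 of the adhesion list, which rose by 0.71 in OH (adjusted p = 0.030 in limma).

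Markers of fibroblasts and of pericytes and vessels moved with the members on the OH stomach arrays. The 3 genes of interstitial cells of Cajal had list means of 0.58, -0.24, -0.08 and 0.02 on arrays 1 to 4, so array 2 and not array 3 was the lowest. All 6 fibroblast genes were higher in OH stomach than in C stomach by their means (median 0.50, none passed in limma), and the mean of the list ran from -1.68 on OH stomach array 3 to 0.58 on array 1. All 6 genes of pericytes and vessels were higher as well (median 0.67, none passed), with list means of 0.30, -0.73, -1.24 and -0.04. The stomach mucosa markers were lowest on array 1, at 2.20, against 2.95 to 3.34 on the other 3. The striated muscle genes had means of 0.48, -0.36, -0.55 and 0.40 on these arrays. Their difference between OH and C was in the other direction from that of the members, with a median of -2.33, 17 of 19 lower and none past the threshold. Without C stomach replicate 2 it was -3.48, with 16 of 19 past the threshold, while the median was 0.37 for fibroblasts and 0.60 for pericytes and vessels. The part of these cell types in the ratios of the contractile genes was not tested.

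**Figure D4:**
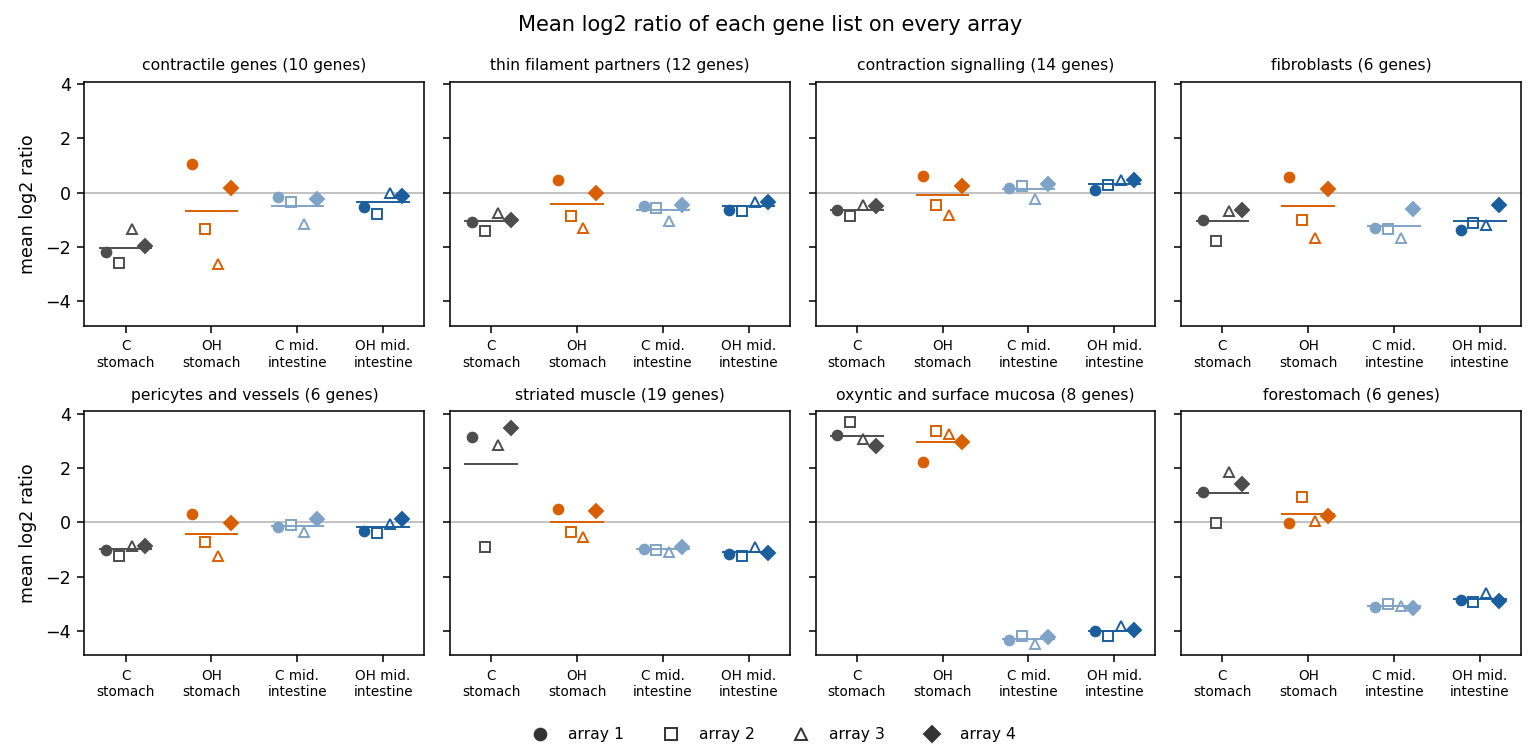
Mean log2 ratio of 8 gene lists on every array; markers are the arrays, bars the group means, and the number of kept genes is in each title. The contractile genes, thin filament partners, contraction signalling, fibroblasts, pericytes and vessels, and striated muscle share the order of the OH stomach arrays, with array 1 at the top and array 3 at the bottom. On 3 of the 4 C stomach arrays the striated muscle genes are high (2.83 to 3.47).

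Of 14517 other named genes, those with a pattern most like the mean of the members over the 16 arrays were Myl9 (Pearson's r = 0.989), Lims2 (0.989), Tpm2 (0.988), Kcnmb1 (0.987), Dact3 (0.985), Tgfb1i1 (0.983), Abcg4 (0.982) and Fbxl22 (0.982). After the group means were taken away, the 8 most alike were Tpm2 (0.991), Abcg4 (0.990), Csrp1 (0.989), Flna (0.987), Myl9 (0.983), Lims2 (0.982), Mrgprf (0.982) and Kcnmb1 (0.982), and 5 genes were in both lists. The median r over all these genes was -0.05 and -0.18, respectively, and 211 and 305 genes had an r over 0.9. Likeness of pattern across these arrays was measured here, and nothing else about the genes.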

How the data were processed

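Agilent arrays with 2 colours were used, 1 for each of 16 rat tissue samples. The deposited scanner files came from Feature Extraction, version 10.7.3.1 per the labels and 10.10.1.1 per the file headers, and hold each spot's mean, background and processed intensity in both dyes. The processed intensity was background-subtracted and Lowess-normalized within the array. The authors also deposited a log10 ratio of Cy5 to Cy3 per spot.

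The log2 ratio was computed from the deposited processed intensities, without control and outlier spots, and averaged per probe. Of 30367 probes, 21174 were kept, for which a group had, on each of its 4 arrays, at least 0.5 of the spots well above background (Cy5), and every group 3 values or more. The fit in limma 3.58.1 (R 4.3.3) took all 16 arrays and gave every group its own mean, with Benjamini-Hochberg adjustment over the kept probes and a threshold of 0.05. Single genes were compared by exact permutation tests. With 4 arrays a group, the number of arrays limits the precision. The p-values and intervals of limma rest on 1 spread per probe, pooled over the 4 groups, each of which lay on 1 slide. They do not measure the spread of the groups compared alone.

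The members and the lists were chosen with earlier results of these data known. Genes named are the 10 members, 12 direct partners, the genes of the 5 pathway lists that passed (1 is not reported here), genes of other lists where a result of the members turns on them, and the 8 most alike by 2 measures. Of 134 other list genes, 121 were kept, 7 were not and 6 had no probe by that name. Gene names and rn4 coordinates are those of the array design. The lists also held interstitial cells of Cajal (3 genes, median difference of OH against C in stomach 0.39), enterocytes (9 kept, 0.18) and forestomach (6 kept, -0.79). Alternatives covered the background correction, scaling, quantile-normalized Cy5 alone, the deposited log10 table, filters, outlier spots, fits of only the arrays compared, the replicate number as a block, one-way ANOVA with Tukey's HSD as in the methods, array weights, the mean of all probes of a gene, and each array left out. The partners, lists, second probes and Cy5 without C stomach replicate 2 were added after the data were seen.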

Additional observations from a re-analysis of the deposited data

Results flagged for a closer look

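Of 40 sets of 4 arrays (10 genes in 4 groups), 1 held an array far from the other 3 by Dixon's ratio, and chance gives about 2. Tagln on C middle intestine replicate 3 was at -1.38, while the other 3 arrays lay between -0.70 and -0.58, and the gap was 0.85 of the range of the group. The same array was the lowest of its group for all 10 genes.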

How the results depend on the processing

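No setting brought a contractile gene past the threshold in OH against C, in either tissue, or in the difference between tissues, and in stomach all 10 stayed higher in OH under every one of them. Over all probes, the count for OH against C in stomach (0) was 3 with median centring, 1 with scale normalization, 11 with quantile-normalized Cy5, 2 with the deposited log10 table, 639 with no filter, 1138 with array weights and 709 with ANOVA and Tukey's HSD. Leaving out 1 array gave 0 to 446, the highest without C stomach replicate 2. In middle intestine (78) it was 256 with quantile-normalized Cy5, 1378 with no filter and 14 with only the arrays compared. It was 936 there with ANOVA and Tukey's HSD, and 13 to 42 with 1 array left out. The counts by ANOVA and Tukey's HSD adjust only the ANOVA of all groups over probes, and not the Tukey p of the pair. For the difference between tissues (0) leaving out 1 array gave 0 to 159, the highest again without C stomach replicate 2. The cause was not tested. Between the C tissues, all 10 stayed lower in stomach, and the members that dropped out were Actg2 and Synm with no filter, Actg2, Smtn and Synm with ANOVA and Tukey's HSD, and Synm with the mean of its probes. Those that came to pass were Acta2 with scale normalization, with quantile-normalized Cy5 and without C middle intestine replicate 3, Acta2, Tagln, Des and Lmod1 with array weights, Lmod1 without C stomach replicate 3, and all 6 others with only the arrays compared.

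With the replicate number as a block, that count in middle intestine was 40, and among the members Acta2 passed between the C tissues (adjusted p = 0.043 in limma). The block changed no other call of a member. The labels do not say what the numbers stand for. Deviations of same-numbered arrays from the group means correlated from -0.40 to 0.51 over all pairs of groups, from 0.058 to 0.25 between the C tissues (3 of 4 over 0.1) and from -0.12 to 0.32 between the OH tissues (2 of 4), so a shared rat is not settled by them.

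Differences near 0 that did not pass changed sign. Between the OH tissues, Tagln was at -0.022 with median centring, -0.0028 with quantile-normalized Cy5 and -0.059 with array weights, and with scale normalization Actg2 was at 0.059 and Myh11 at 0.028. Between OH and C in middle intestine, Actg2 was at -0.010 (scale), -0.11 (quantile-normalized Cy5) and -0.019 (array weights), Mylk at -0.010 (scale) and -0.050 (array weights), Cnn1 at -0.10, Lmod1 at -0.039 and Synm at 0.18 with quantile-normalized Cy5, and Synm at 0.14 with the mean of all its probes.

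With 1 array left out, the difference between the OH tissues ranged from -0.76 to 0.39 for Acta2, -0.66 to 0.57 for Actg2, -0.79 to 0.55 for Myh11, -0.28 to 0.99 for Cnn1, -0.55 to 0.62 for Tagln, -0.79 to 0.31 for Des, -1.04 to 0.30 for Lmod1 and -1.22 to 0.091 for Synm. OH against C in middle intestine ranged from -0.27 to 0.16 for Acta2, -0.11 to 0.40 for Actg2, -0.087 to 0.50 for Myh11, -0.33 to 0.095 for Des, -0.056 to 0.23 for Smtn, -0.17 to 0.19 for Mylk and -0.40 to 0.12 for Synm. ANOVA and the fit of only the arrays compared were not run for the difference between tissues, and the mean of all probes gives no count.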
